A study of Mus musculus with 27 samples.

Results

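The breakdown of leucine, isoleucine and valine was followed through 10 genes, out of 16636 genes tested, in single myofibers of the mouse tibialis anterior. The genes were chosen by their symbols with measured values in view: their levels in Smn1deltaSKM against WT myofibers, and after transplantation of AFS cells, had been seen when they were picked, so these differences are descriptions and carry no test. Each of 27 microarrays held the amplified RNA of 1 myofiber from a male mouse given as 3 months old. WT myofibers numbered 8, from 2 mice. The Smn1deltaSKM group held 12 myofibers from 3 mice, in which Cre under the human α-skeletal actin promoter deletes exon 7 of Smn1 in muscle fibers. The Smn1deltaSKM+AFS group held 7 myofibers from 2 such mice that had received amniotic fluid stem (AFS) cells through the tail vein. The methods have the transplanted mice killed some weeks after injection, while the labels give all groups the same age. The study's text counts the transplanted myofibers and mice differently from the labels, which were followed here. Control mice are described as littermates in one place and as C57BL/6 GFP+ mice in another.

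Branched-chain amino acids are broken down largely in mitochondria, and skeletal muscle is the main site of their first step. A transaminase, Bcat2, moves the amino group to 2-oxoglutarate, and the branched-chain ketoacid dehydrogenase complex, of which Bckdha is the E1α subunit, then commits the carbon skeleton to oxidation. The kinase Bckdk phosphorylates that subunit and switches the complex off. After this shared step, separate acyl-CoA dehydrogenases serve leucine (Ivd), isoleucine (Acadsb) and valine (Acad8). Mccc1 and Mccc2 are both subunits of methylcrotonyl-CoA carboxylase in the leucine branch, and Hibadh and Aldh6a1 act late in the valine branch.

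The promoters of 3 members are shown because these genes mark both directions seen: Ivd and Hibadh lay lower in every Smn1deltaSKM myofiber with a value than in any WT myofiber, and Acad8 lay higher on average. Each stretch is the 250 bases before the RefSeq start site in GRCm38.p6, written 5′ to 3′ on the gene's strand. Capitals mark matches on either strand to the letters CCAAT, to the GC box with the letters GGGCGG, or to the palindromic NRF1 motif.
Ivd (chr2:118861744-118861993, plus strand): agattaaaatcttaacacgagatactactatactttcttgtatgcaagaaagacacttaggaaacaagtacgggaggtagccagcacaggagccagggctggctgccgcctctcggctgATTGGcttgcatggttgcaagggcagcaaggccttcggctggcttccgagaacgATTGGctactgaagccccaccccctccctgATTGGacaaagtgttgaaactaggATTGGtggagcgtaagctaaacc
Hibadh (chr6:52640301-52640550, minus strand): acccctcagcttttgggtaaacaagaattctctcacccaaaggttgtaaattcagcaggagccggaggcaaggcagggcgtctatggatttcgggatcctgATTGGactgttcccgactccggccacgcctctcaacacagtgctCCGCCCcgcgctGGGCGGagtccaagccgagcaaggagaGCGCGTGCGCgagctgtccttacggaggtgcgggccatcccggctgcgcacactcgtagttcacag
Acad8 (chr9:26999550-26999799, minus strand): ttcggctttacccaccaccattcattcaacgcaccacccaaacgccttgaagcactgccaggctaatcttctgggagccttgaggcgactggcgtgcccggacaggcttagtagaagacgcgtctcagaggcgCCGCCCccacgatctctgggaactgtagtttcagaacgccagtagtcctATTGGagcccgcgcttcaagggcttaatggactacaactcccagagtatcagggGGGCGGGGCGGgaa
Ivd held 4 CCAAT matches and no GC box. Hibadh held 1 CCAAT match, 2 GC boxes and 1 NRF1 motif, and Acad8 held 1 CCAAT match and 3 GC boxes, of which the last 2 overlap by a base. Over the 12 windows that RefSeq gives the 10 members, 8 held CCAAT, 4 held GGGCGG and 1 held the NRF1 motif, against 33.8%, 32.7% and 3.74% of all 32851 windows. CACGTG (E-box) was found in 1 of the 12 windows and 6.02% of all, and AAGGTCA (ERR element) and CCGGAAG (GABP motif) in 0 of the 12, against 4.08% and 6.91% of all. CCAAT was searched for after the sequences had been seen.

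Levels are log2 processed signals minus the 75th percentile of the same array, so 0 is the brightness of a probe at that percentile, and a level is not compared between genes. All 10 genes were represented by a probe with values on at least 21 of 27 arrays, and 12 of their 14 probes passed this filter. Arrays held values for 23170 to 37580 of 55681 probes. The range was 23864 to 34001 in WT, 23170 to 37580 in Smn1deltaSKM and 25868 to 30478 in Smn1deltaSKM+AFS. Apart from WT myofiber 8, WT arrays held at most 27318, while those of Smn1deltaSKM mice 2 and 3 held at least 30919. The part of this in the comparisons was not tested. The 8 WT arrays shared a slide and a scan day with no array of another group, so slide, scan day and genotype cannot be told apart in any comparison with WT. WT myofiber 8 stood apart from the other WT arrays, with 34001 probes with values and a median correlation with its group of 0.90 across 10137 genes. Of the other arrays, Smn1deltaSKM myofibers 1, 2 and 3, all of scan day 1, had such correlations of 0.90, 0.84 and 0.89, and Smn1deltaSKM+AFS myofiber 3 one of 0.90. Of the Smn1 probes, the one at chr13:100907539-100907598, plus strand (mm9) differed by -1.68 ± 0.37 (SE) between Smn1deltaSKM and WT, while the other, at chr13:100898171-100898230, plus strand, differed by 0.19 ± 0.35 (SE). Where these probes lie relative to the deleted exon was not analysed here. Each of the 9 fast myofiber markers was above background on at least 7 of 8 WT, 11 of 12 Smn1deltaSKM and 7 of 7 Smn1deltaSKM+AFS arrays. Their summed signal, in units of the array's 75th percentile, had medians of 3.06e+03, 2.04e+03 and 2.54e+03 in WT, Smn1deltaSKM and Smn1deltaSKM+AFS, with ranges of 2.11e+03 to 3.73e+03, 1.63e+03 to 2.68e+03 and 2.38e+03 to 3.1e+03. Median levels were 5.73, 3.52 and 3.98 for Mylpf, a fast myosin light chain, and 8.32, 6.73 and 7.17 for Ckm, muscle creatine kinase. In the same list Myh1 went the other way, at 1.61, 3.47 and 6.83, and Myh4 was at 7.43, 6.99 and 7.18. Median summed signals of some other lists also moved with the groups. Slow or oxidative myofiber genes ran from 11.5 to 46.7 in WT, 16.6 to 164 in Smn1deltaSKM and 23.3 to 365 in Smn1deltaSKM+AFS, with medians of 17.1, 38.3 and 179. Mb was the brightest of these genes in every group, with median levels of 3.91, 4.73 and 7.46. Tnnt1, Tnni1 and Myl2 also had higher medians than in WT. Myh7 was at -0.71, -0.75 and -0.54, Atp2a2 at -1.55, -0.59 and -1.99, and Myh2 was above background on 0, 2 and 2 arrays. The medians of 6 fibroblast genes were 2.32, 11.4 and 15, and those of 5 adipocyte genes 0.706, 2.63 and 2.66, in the same order of groups. The fibroblast sums overlapped, with ranges of 0.804 to 116, 1.53 to 34.5 and 1.94 to 22.6. So did the adipocyte sums, with ranges of 0.566 to 5.16, 0.817 to 9.26 and 1.15 to 17.4. The erythrocyte genes had medians of 0.505, 0.832 and 11.1, with overlapping ranges of 0.144 to 30.9, 0.661 to 27.7 and 0.705 to 39.5. Their Hba-a1, a hemoglobin chain, had median levels of -1.30, -0.40 and 3.46. Hbb-b1 and Alas2 of that list did not follow, at -4.53, -4.77 and -5.03 and at -3.78, -4.37 and -3.53. Of the fibroblast genes, Col1a2 was above background on 8 WT, 12 Smn1deltaSKM and 7 Smn1deltaSKM+AFS arrays, Dcn on 1 WT, 12 Smn1deltaSKM and 5 Smn1deltaSKM+AFS arrays and Pdgfra on 0. Of the satellite cell genes, Cdh15 was above background on 8 WT, 11 Smn1deltaSKM and 7 Smn1deltaSKM+AFS arrays, Pax7 on 1 WT, 1 Smn1deltaSKM and 1 Smn1deltaSKM+AFS arrays and Myf5 on 0. Median sums of the macrophage or leukocyte genes were 256, 228 and 270, and their Itgam had median levels of 7.85, 7.70 and 7.95. Those of the endothelial cell genes were 11.1, 13.7 and 13.5. Satellite cell genes had median sums of 1.33, 0.997 and 1.22, and Schwann cell or nerve genes 1.30, 1.93 and 2.03. The part of these markers in the results was not tested.

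In Smn1deltaSKM myofibers, 9 of the 10 members lay below WT and 1, Acad8, above. The median difference over the 10 was -1.52 on the log2 scale, beside -0.57 for 893 mitochondrial (MitoCarta) genes and -0.11 for all 16636 genes. In the limma fit on mouse means over all genes, 6 members were past an adjusted p of 0.05 in the lower direction, where 13.9% of all genes were, and 1 in the higher direction, where 8.05% were (22.0% in either direction). For the same 6 members (Bckdk, Mccc1, Mccc2, Ivd, Hibadh and Aldh6a1) every Smn1deltaSKM myofiber with a value lay below every WT myofiber, as did 7.04% of all genes, and for 0 members did every one lie above, as did 3.87% of all genes. Since the members were chosen on this contrast, nothing is read from these counts. They also rest on both WT mice: with either WT mouse left out, 0 members passed, and without Smn1deltaSKM mouse 2 or Smn1deltaSKM mouse 3 Acad8 no longer did. Without the array of WT myofiber 8, 7 members passed in the lower direction and 1 in the higher, and without the arrays of scan day 1 the counts were also 7 and 1. Over all 16636 genes, 4420 and 5024 passed in either direction in these fits, against 3656 with all arrays. The members' counts are not read apart from these.

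**Figure D1:**
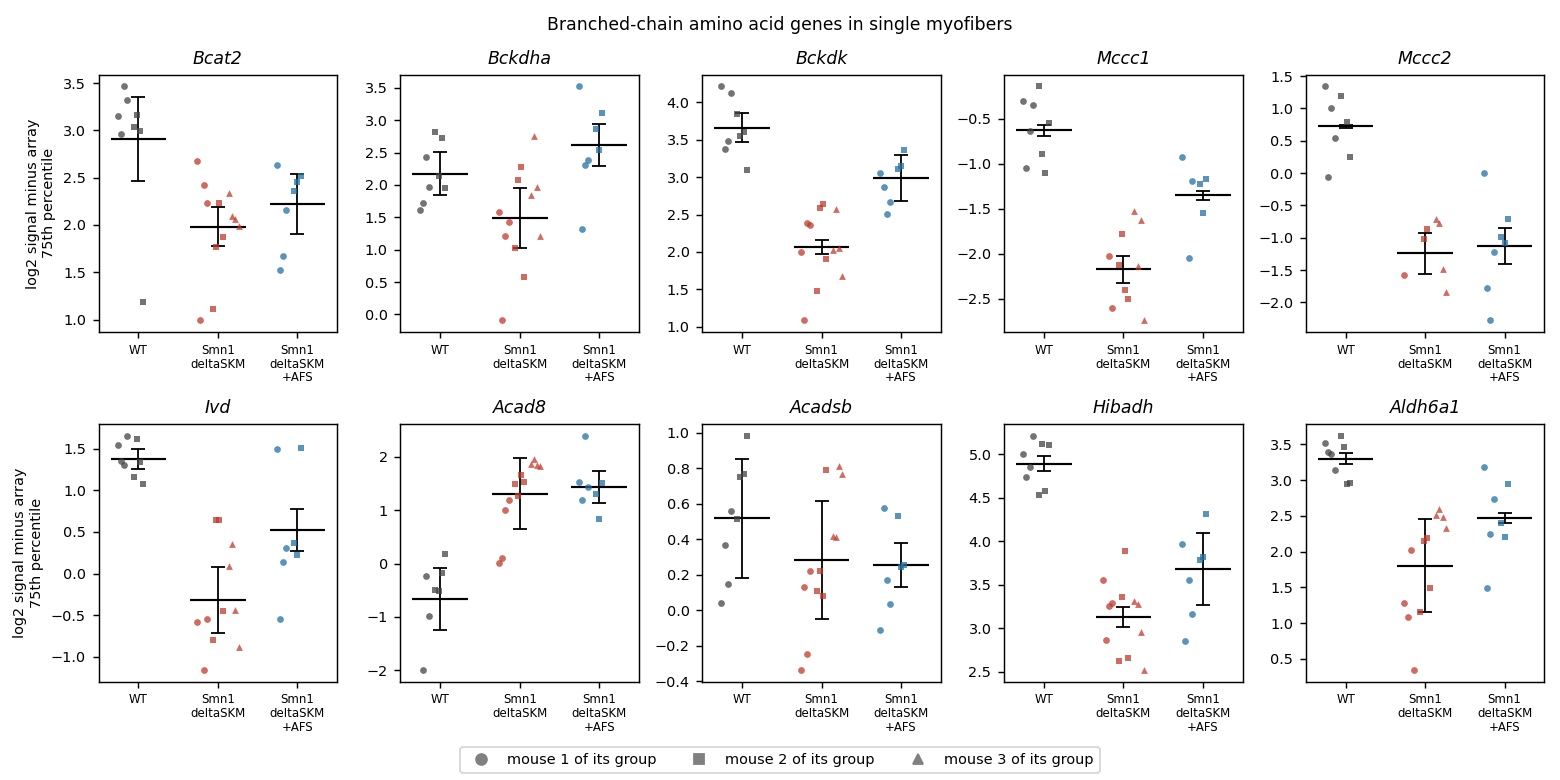
Level (log2 signal minus the array's 75th percentile, vertical axis) of each of the 10 genes in every myofiber with a value, by group, with marker shapes for the mice of a group; bars are the mean ± SD of the mouse means. For Bckdk, Mccc1, Mccc2, Ivd, Hibadh and Aldh6a1 the Smn1deltaSKM points lie below all WT points, and for Acad8 they lie higher, with 2 of 12 inside the WT range.

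At the first step of the pathway, the groups overlapped. Bcat2 (probe at chr7:52844940-52844999, plus strand, mm9) is the mitochondrial branched-chain transaminase. Its level ran from 1.19 to 3.47 in the 8 WT myofibers (median 3.1), from 0.99 to 2.68 in the 12 Smn1deltaSKM myofibers (median 2.08) and from 1.53 to 2.63 in the 7 Smn1deltaSKM+AFS myofibers (median 2.36). WT myofiber 8 was far below the other WT myofibers, and 10 of 12 Smn1deltaSKM values lay inside the WT range, which that myofiber sets. The mouse means were 2.91 ± 0.44 (SD, n = 2) in WT, 1.98 ± 0.20 (SD, n = 3) in Smn1deltaSKM and 2.22 ± 0.32 (SD, n = 2) in Smn1deltaSKM+AFS. The difference Smn1deltaSKM minus WT was -0.93 ± 0.31 (SE), and Smn1deltaSKM+AFS minus Smn1deltaSKM was 0.24 ± 0.31 (SE). The second of these differed in sign between scan days, with -0.43 on scan day 1 and 0.39 on scan day 2.

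Between Smn1deltaSKM and WT myofibers, the dehydrogenase subunit overlapped and its kinase did not. For Bckdha (chr7:26415094-26415153, minus strand), the E1α subunit, the level ran from 1.62 to 2.82 in the 8 WT myofibers (median 2.06), from -0.09 to 2.76 in the 12 Smn1deltaSKM myofibers (median 1.5) and from 1.33 to 3.52 in the 7 Smn1deltaSKM+AFS myofibers (median 2.53). The groups overlapped, with 5 of 12 Smn1deltaSKM values inside the WT range, and Smn1deltaSKM minus WT was -0.68 ± 0.35 (SE). It was -0.10 after normexp and quantile normalization, -0.45 without WT mouse 2 and -0.45 without Smn1deltaSKM mouse 1. Smn1deltaSKM+AFS minus Smn1deltaSKM was 1.12 ± 0.35 (SE), which put the treated myofibers above WT by 0.44 ± 0.38 (SE). Bckdk (chr7:135051800-135051859, plus strand), the inhibitory kinase, had no overlap between Smn1deltaSKM and WT. Its level ran from 3.09 to 4.21 in the 8 WT myofibers (median 3.58), from 1.09 to 2.65 in the 12 Smn1deltaSKM myofibers (median 2.04) and from 2.51 to 3.37 in the 7 Smn1deltaSKM+AFS myofibers (median 3.05). The mouse means were 3.66 ± 0.19 (SD, n = 2) in WT, 2.07 ± 0.10 (SD, n = 3) in Smn1deltaSKM and 2.99 ± 0.31 (SD, n = 2) in Smn1deltaSKM+AFS. The difference Smn1deltaSKM minus WT was -1.59 ± 0.27 (SE). The treated myofibers lay between, 0.93 ± 0.27 (SE) above Smn1deltaSKM, and 6 of 7 were higher than any Smn1deltaSKM myofiber, while 3 of 7 lay inside the WT range. This difference was 0.86 on scan day 1 and 0.83 on scan day 2, each day holding 1 to 3 mice a group.

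In the leucine branch, Ivd and both carboxylase subunits were lower in Smn1deltaSKM. Ivd (chr2:118706998-118707057, plus strand), isovaleryl-CoA dehydrogenase, has the 4 CCAAT matches shown above. Its level ran from 1.08 to 1.66 in the 8 WT myofibers (median 1.34), from -1.16 to 0.64 in the 11 of 12 Smn1deltaSKM myofibers with a value (median -0.45) and from -0.55 to 1.51 in the 7 Smn1deltaSKM+AFS myofibers (median 0.30). The mouse means were 1.38 ± 0.12 (SD, n = 2) in WT, -0.32 ± 0.40 (SD, n = 3) in Smn1deltaSKM and 0.53 ± 0.25 (SD, n = 2) in Smn1deltaSKM+AFS. The Smn1deltaSKM mice were at -0.76, 0.01 and -0.22, and both treated mice were above them, at 0.35 and 0.70. The difference Smn1deltaSKM minus WT was -1.71 ± 0.31 (SE) and Smn1deltaSKM+AFS minus Smn1deltaSKM was 0.85 ± 0.31 (SE).

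Mccc1 and Mccc2 encode the biotin-carrying and the other subunit of 1 enzyme. For Mccc1 (chr3:35858227-35858286, minus strand), the level ran from -1.10 to -0.14 in the 8 WT myofibers (median -0.59), from -2.74 to -1.53 in the 10 of 12 Smn1deltaSKM myofibers with a value (median -2.13) and from -2.05 to -0.92 in the 6 of 7 Smn1deltaSKM+AFS myofibers with a value (median -1.21). Smn1deltaSKM minus WT was -1.55 ± 0.25 (SE) and Smn1deltaSKM+AFS minus Smn1deltaSKM was 0.82 ± 0.25 (SE), though within scan days the latter was -0.02 on scan day 1 and 1.09 on scan day 2, the first with 1 myofiber a group. For Mccc2 (chr13:100718508-100718567, minus strand), the level ran from -0.06 to 1.34 in the 7 of 8 WT myofibers with a value (median 0.79), from -1.83 to -0.70 in the 7 of 12 Smn1deltaSKM myofibers with a value (median -1.02) and from -2.28 to 0.00 in the 7 Smn1deltaSKM+AFS myofibers (median -1.08). Only 7 of 12 Smn1deltaSKM arrays gave a value, so the Smn1deltaSKM mean leaves out the arrays where the probe was not well above background. Smn1deltaSKM minus WT was -1.97 ± 0.29 (SE), and Smn1deltaSKM+AFS minus Smn1deltaSKM was 0.12 ± 0.29 (SE), and Smn1deltaSKM+AFS minus WT was -1.85 ± 0.32 (SE). With the measured signal kept on every array, Smn1deltaSKM minus WT was -2.69 and Smn1deltaSKM+AFS minus Smn1deltaSKM was 0.91.

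The valine branch held differences in opposite directions. Acad8 (chr9:26781825-26781884, minus strand), isobutyryl-CoA dehydrogenase, was the member that lay higher. Its level ran from -2.0 to 0.18 in the 7 of 8 WT myofibers with a value (median -0.50), from 0.02 to 1.95 in the 12 Smn1deltaSKM myofibers (median 1.51) and from 0.84 to 2.39 in the 7 Smn1deltaSKM+AFS myofibers (median 1.44). 2 Smn1deltaSKM myofibers, both of mouse 1, lay inside the WT range and 10 lay above it. The top of that range is set by WT myofiber 8, and the next WT value, -0.17, lay below every Smn1deltaSKM myofiber. The Smn1deltaSKM mice were at 0.58, 1.49 and 1.87, against -1.07 and -0.25 in WT. Smn1deltaSKM minus WT was 1.97 ± 0.43 (SE) and Smn1deltaSKM+AFS minus Smn1deltaSKM was 0.12 ± 0.43 (SE), so the treated myofibers remained 2.09 ± 0.47 (SE) above WT. The scan days differed here too, with 1.42 on scan day 1 and -0.16 on scan day 2.

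Further along, Hibadh (chr6:52496381-52496440, minus strand), 3-hydroxyisobutyrate dehydrogenase, lay lower. Its level ran from 4.53 to 5.21 in the 8 WT myofibers (median 4.93), from 2.52 to 3.89 in the 12 Smn1deltaSKM myofibers (median 3.26) and from 2.85 to 4.31 in the 7 Smn1deltaSKM+AFS myofibers (median 3.78). The mouse means were 4.89 ± 0.09 (SD, n = 2) in WT, 3.13 ± 0.11 (SD, n = 3) in Smn1deltaSKM and 3.68 ± 0.42 (SD, n = 2) in Smn1deltaSKM+AFS. Smn1deltaSKM minus WT was -1.76 ± 0.28 (SE) and Smn1deltaSKM+AFS minus Smn1deltaSKM was 0.55 ± 0.28 (SE), with -0.02 on scan day 1 and 0.62 on scan day 2. It was 0.26 without Smn1deltaSKM+AFS mouse 2 and 0.84 without Smn1deltaSKM+AFS mouse 1. No treated myofiber reached the WT range. Aldh6a1 (chr12:85772801-85772860, minus strand), methylmalonate semialdehyde dehydrogenase, was also lower. Its level ran from 2.95 to 3.62 in the 8 WT myofibers (median 3.38), from 0.34 to 2.60 in the 12 Smn1deltaSKM myofibers (median 2.09) and from 1.5 to 3.18 in the 7 Smn1deltaSKM+AFS myofibers (median 2.40). Smn1deltaSKM minus WT was -1.50 ± 0.38 (SE) and Smn1deltaSKM+AFS minus Smn1deltaSKM was 0.66 ± 0.38 (SE), with 0.35 without Smn1deltaSKM mouse 1, 1.00 without Smn1deltaSKM mouse 3 and 1.22 without scan day 1. Its other probe (chr12:85771835-85771894, minus strand) gave -2.49 ± 0.73 (SE) for Smn1deltaSKM minus WT, and its Smn1deltaSKM mice were spread from -0.73 in mouse 1 to 1.75 in mouse 2.

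In the isoleucine branch, the probes of Acadsb, the short/branched-chain acyl-CoA dehydrogenase, disagreed. For the one with the higher mean over all arrays (chr7:138587623-138587682, plus strand), the level ran from 0.04 to 0.98 in the 8 WT myofibers (median 0.54), from -0.34 to 0.81 in the 12 Smn1deltaSKM myofibers (median 0.22) and from -0.11 to 0.58 in the 7 Smn1deltaSKM+AFS myofibers (median 0.25). Here the groups overlapped and Smn1deltaSKM minus WT was -0.23 ± 0.30 (SE). For the other (chr7:138588828-138588887, plus strand), which lies downstream on the same strand, the level ran from 0.19 to 1.47 in the 8 WT myofibers (median 0.86), from -1.96 to 0.41 in the 11 of 12 Smn1deltaSKM myofibers with a value (median -1.01) and from -1.04 to -0.11 in the 5 of 7 Smn1deltaSKM+AFS myofibers with a value (median -0.58). Smn1deltaSKM minus WT was -1.83 ± 0.44 (SE) there, with the Smn1deltaSKM mice at -0.16, -1.35 and -1.47. A statement on Acadsb therefore depends on the probe. A second Mccc1 probe (chr3:35858790-35858849, minus strand) had values on 19 arrays and was not tested, with mouse means of 0.64 in WT, -0.18 in Smn1deltaSKM and 0.50 in Smn1deltaSKM+AFS. A second Mccc2 probe had values on 0 arrays.

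**Figure D2:**
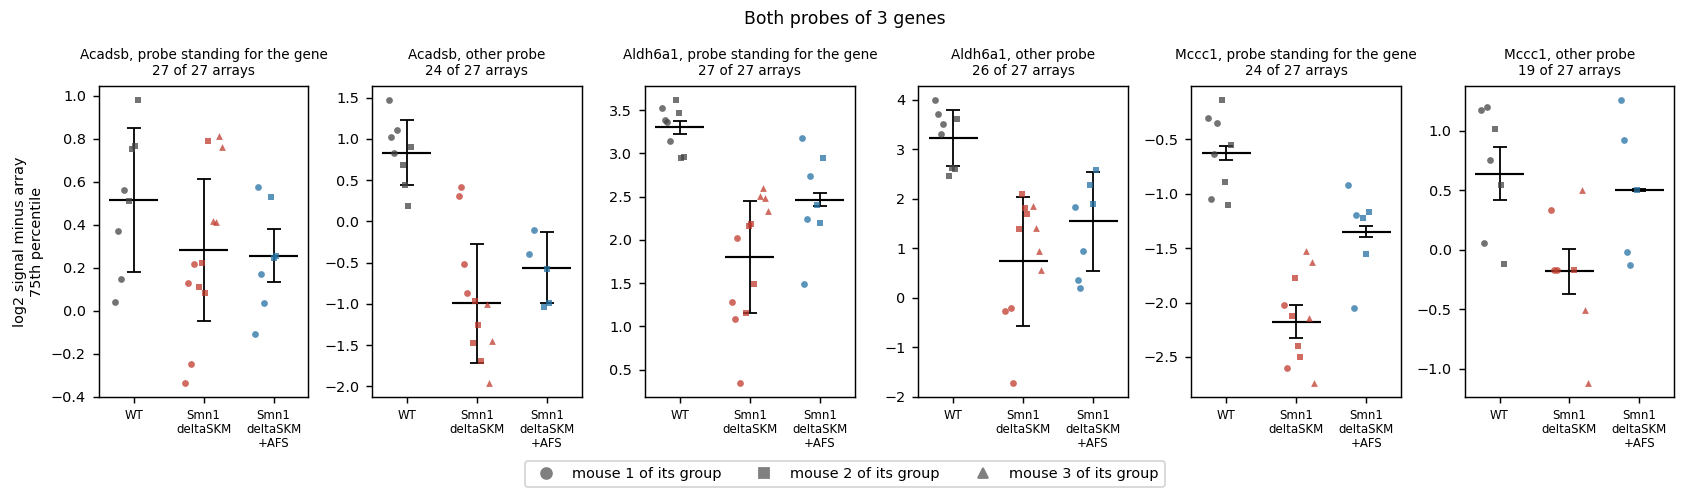
Level (log2 signal minus the array's 75th percentile, vertical axis) by group for both probes of Acadsb, Aldh6a1 and Mccc1; points are myofibers, shapes mice, bars the mean ± SD of the mouse means. The Acadsb probe standing for the gene differs by -0.23 between Smn1deltaSKM and WT and the other by -1.83.

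In transplanted against untreated Smn1deltaSKM myofibers, 9 of the 10 members lay higher, with a median difference of 0.61 beside 0.36 for the MitoCarta genes and 0.06 for all genes. In 5 members (Bckdha, Bckdk, Mccc1, Ivd and Hibadh) both treated mouse means were above all 3 untreated ones, as were 12.4% of 16570 genes. The limma fit called 0 members and 0 of 16636 genes (0.0%), and 20 genes when single myofibers were taken as replicates. In the fit on mouse means, 533 genes had an unadjusted p under 0.05, a smaller share than the 0.05 that chance alone would give. Against WT, 2 members (Mccc2 and Hibadh) were past the threshold in the lower direction, where 4.33% of all genes were, and 1 (Acad8) in the higher, where 3.47% were (7.81% in all). With any 1 of the 2 WT or 2 Smn1deltaSKM+AFS mice left out, 0 members were called against WT, and Acad8 was not called in the authors' value table, after quantile or normexp normalization, or without Smn1deltaSKM mouse 2 or 3. Both comparisons share the 2 transplanted mice, and members were chosen with them in view.

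**Figure D3:**
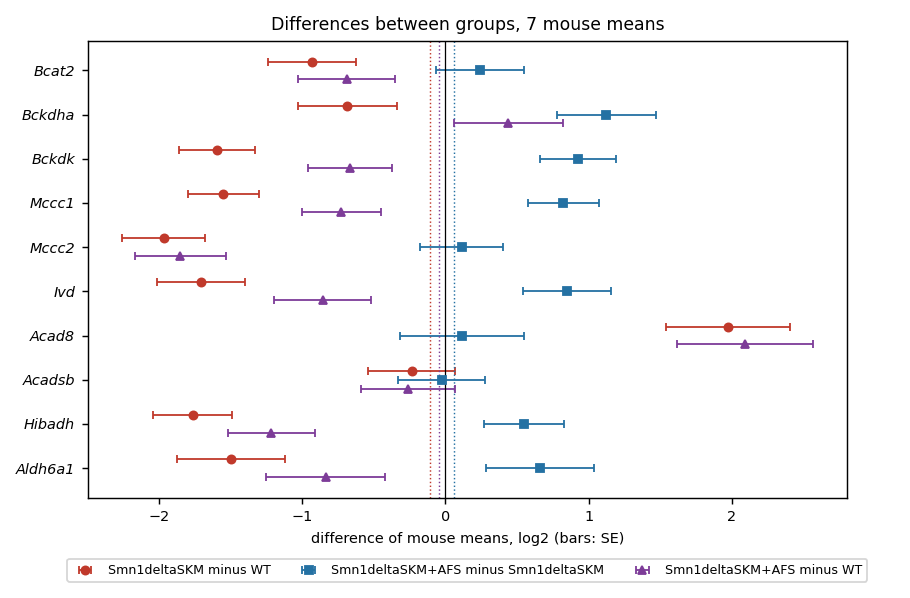
Differences of mouse means (log2, horizontal axis; bars are SE) for the 10 genes in the 3 comparisons; dotted lines are the medians of all genes tested. Smn1deltaSKM minus WT ranges from -1.97 for Mccc2 to 1.97 for Acad8.

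Scan days 1 and 2 both held untreated and treated arrays, with 3 and 2 arrays on day 1, from 1 mouse a group, and 9 and 5 on day 2. Slides 1 and 4 held untreated arrays only, slides 2 and 5 treated arrays only, and slide 3 both. Outside slide 3, slide and treatment therefore cannot be told apart, also within a scan day. Bckdha, Bckdk, Ivd and Aldh6a1 lay higher in Smn1deltaSKM+AFS on both days. Bcat2, Mccc1, Mccc2 and Hibadh lay higher on day 2, where Hibadh differed by 0.62, but were at -0.43, -0.02, -0.45 and -0.02 on day 1. The day 1 value of Mccc2 rests on 1 untreated myofiber, at -1.57, as the other untreated arrays of that day gave no value. Acad8 and the Acadsb probe with the higher mean showed the reverse, with that probe at 0.52 on scan day 1 and -0.22 on scan day 2, while the other Acadsb probe was at -0.18 and 0.60.

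**Figure D4:**
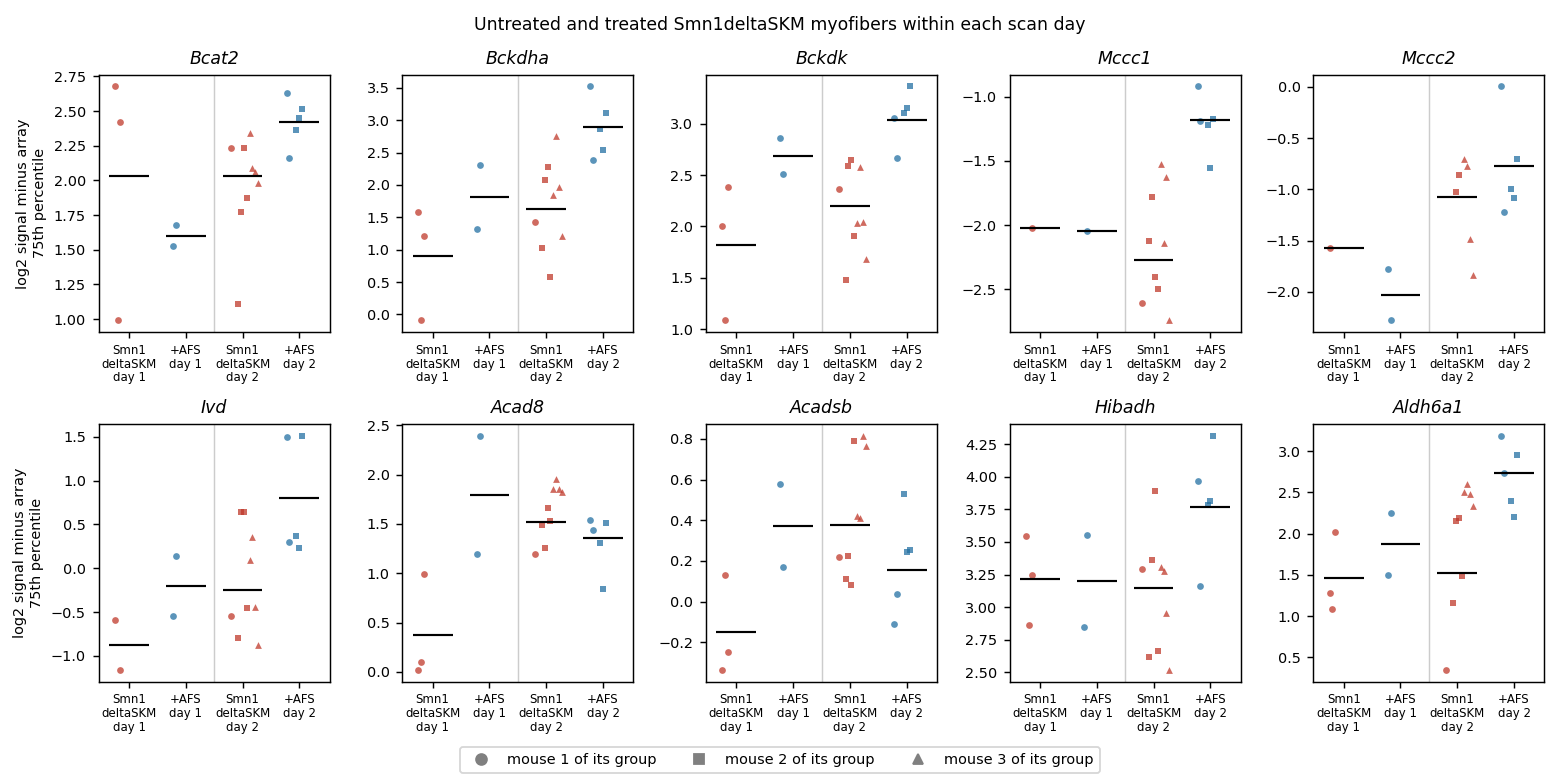
Level (log2 signal minus the array's 75th percentile, vertical axis) of the 10 genes in untreated and treated Smn1deltaSKM myofibers, split by scan day; points are myofibers, shapes mice, and lines the mean of the mouse means. For Bcat2 the treated myofibers lie 0.43 lower on day 1 and 0.39 higher on day 2.

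Within mice, most pairs of members had a positive correlation from myofiber to myofiber. Other genes were not examined in this way, so this is not read as a trait of the members. After each mouse's mean was taken away, the 45 pairs of members had a median Pearson correlation of 0.38 over up to 27 arrays, from -0.68 to 0.84, the highest being that of Ivd with Hibadh. Acad8 had a median correlation of 0.04 with the other members and the Acadsb probe with the higher mean one of -0.44. Members measured on 1 array share its RNA amplification and scaling, so these are descriptions. The myofibers of Smn1deltaSKM mouse 1 and of Smn1deltaSKM+AFS mouse 1 also spanned scan days and slides, which was not taken away.

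Of 37 other genes listed for the pathway, 36 were on the array and 33 were tested. The rule had not used them, but these lists too were drawn up with earlier results of these data known. Their calls are therefore not independent of the choice. Between Smn1deltaSKM and WT, 24 of the 33 lay lower and 9 higher, with a median difference of -0.33. In the limma fit on mouse means, 7 passed in the lower direction and 1 in the higher, beside 13.9% and 8.05% of all genes tested. With either WT mouse left out 0 of the 8 passed the test, and without Smn1deltaSKM mouse 2 or 3 the counts were 4 and 5. In the remaining steps of breakdown, 8 of 9 tested genes lay lower and 2 passed in that direction. These were Acat1, the mitochondrial thiolase, by limma at -1.52 ± 0.32 (SE, adjusted p = 0.0181), and Hsd17b10, a dehydrogenase of the isoleucine branch, at -0.86 ± 0.26 (SE, adjusted p = 0.0467). The dehydrogenase partners Bckdhb, Dbt and Dld gave -0.32, -0.54 and -0.11 and did not pass. A second Dld probe gave -1.27 ± 0.40 (SE), so the value of Dld depends on the probe, as do those of Auh, a hydratase of the leucine branch (-0.72 and 0.61 ± 0.37 (SE)), and Slc25a44, a mitochondrial branched-chain amino acid carrier (0.26 and -0.82 ± 0.34 (SE)).

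Propionyl-CoA, formed from valine and isoleucine, is carried to succinyl-CoA by an enzyme set of which 8 genes were tested. Of these, 5 lay lower and 3 higher, and 2 passed in the lower direction, where 13.9% of all genes did. The 2 were Pccb, a propionyl-CoA carboxylase subunit, at -1.31 ± 0.28 (SE, adjusted p = 0.0198) in the limma fit, and Mmachc, which processes cobalamin, at -1.23 ± 0.27 (SE, adjusted p = 0.0203). Pcca, the partner subunit of Pccb, gave 0.02 and did not pass. All 6 genes that handle the amino group lay lower, and 2 passed: Gpt2, the mitochondrial alanine transaminase, at -2.33 ± 0.42 (SE, adjusted p = 0.0132), and Glud1, glutamate dehydrogenase, at -1.45 ± 0.33 (SE, adjusted p = 0.0224), both by limma. Among 5 transporters, Slc7a5, the large neutral amino acid carrier that takes up leucine, rose by limma with 2.29 ± 0.29 (SE, adjusted p = 0.00633), and it was also higher in Smn1deltaSKM+AFS than in WT, at 2.02 ± 0.31 (SE, adjusted p = 0.0175). Slc7a5 had values on 23 of 27 arrays, with WT values from -1.72 to -0.99, and its difference Smn1deltaSKM minus WT ran from 1.38 to 3.42 over the alternative settings. Slc3a2, its heavy chain, gave -0.33 and did not pass. Among 5 regulators, Klf15, a transcription factor known to drive branched-chain amino acid breakdown in muscle, fell by limma with -1.45 ± 0.42 (SE, adjusted p = 0.0418). Ppara, a fatty acid receptor, was higher in Smn1deltaSKM+AFS than in WT by limma, at 1.67 ± 0.39 (SE, adjusted p = 0.0437), and gave 0.94 for Smn1deltaSKM minus WT, which did not pass. Its other probe gave 0.16 ± 0.31 (SE) for Smn1deltaSKM minus WT. Hsd17b10 kept its call in 8 of 22 alternative settings, Klf15 in 10 of 21 and Ppara in 9 of 22.

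**Figure D5:**
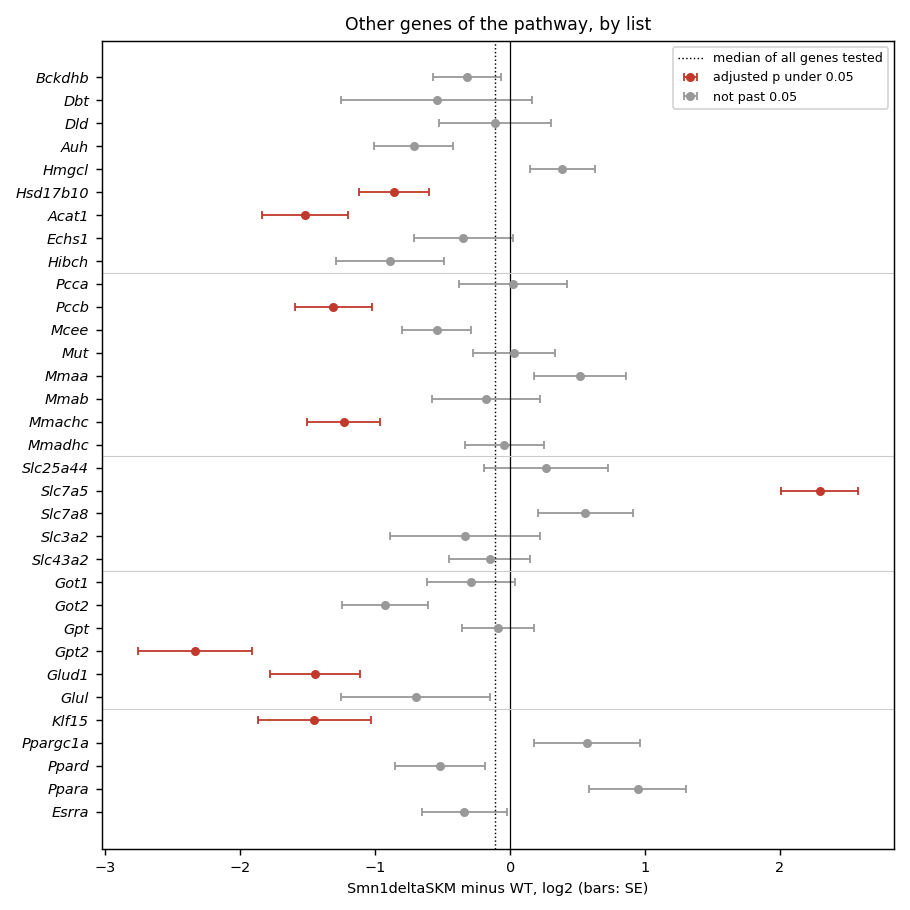
Difference Smn1deltaSKM minus WT (log2, horizontal axis; bars are SE) for 33 other genes of the pathway, grouped by list, with genes past an adjusted p of 0.05 in red and the median of all genes as a dotted line. Gpt2 lies lowest at -2.33 and Slc7a5 highest at 2.29.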

How the data were processed

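RNA of single myofibers was amplified, labelled and hybridised by the authors to Agilent mouse arrays in 1 colour, and scans were read with Feature Extraction 10.7.3.1. The deposited values are intensities: the processed signal of each spot after the scanner software's background correction, and a value table of the authors made from the same arrays, used as an alternative. Here log2 of the processed signal minus the 75th percentile of its array was taken. Spots not found, not well above background or marked as outliers were left out, repeated spots averaged, and probes kept with values on at least 21 of 27 arrays, which left 22154 of 55681 probes. The probe passing this filter with the highest mean stood for each of 16636 genes. Myofibers were averaged per mouse, since genotype belongs to the mouse, and 7 mouse means in 3 groups were fitted with limma 3.58.1 in R 4.3.3, with Benjamini-Hochberg adjustment over all genes and a threshold of 0.05. This fit was tested on simulated data. The number of mice and arrays limits the precision. The members and gene lists were chosen with earlier results of these data known. Named were every member with each probe, listed genes called in any comparison, the listed gene with the largest difference from WT in each list, and Smn1. Mouse numbers recur between groups but denote different animals. MitoCarta names were those of the study's supplementary list, matched by symbol or synonym. Promoters came from RefSeq (GRCm38.p6), probe positions from the array files (mm9). Alternatives covered scaling, background, filter, probe choice, replicate unit, slide, scan day, mouse number and each mouse left out; those without scan day 1 and without WT myofiber 8 were chosen after seeing the data.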

Additional observations from a re-analysis of the deposited data

Results flagged for a closer look

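Among 26 groups of 4 to 10 myofibers examined, 1 member had a sample far from the rest: Bcat2 in WT myofiber 8 was at 1.19, while the nearest WT myofiber was at 2.96, a gap of 0.777 of the group's range. Chance alone marks about 1 group in 20. Without that array, Bcat2 in Smn1deltaSKM minus WT was -1.16, against -0.93 with it. The part of that array's other differences in this value was not tested.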

How the results depend on the processing

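The median difference of the members kept its sign under every alternative run: Smn1deltaSKM minus WT was -1.52 and ran from -1.62 to -1.0, with -1.21 over the 6 members with values on all 27 arrays and -1.0 after normexp and quantile normalization, and Smn1deltaSKM+AFS minus Smn1deltaSKM was 0.61 and ran from 0.43 to 0.78. With each mouse left out in turn these medians ran from -1.62 to -1.33 and from 0.47 to 0.78. Counts of calls moved more. For Smn1deltaSKM against WT the count of 3656 became 9082 with myofibers as replicates, 5910 with the mouse and 1811 with the slide as a random block, and ran from 0 (without WT mouse 1) to 7230 with each mouse left out. Without WT mouse 2 it was 4. For Smn1deltaSKM+AFS against WT the count of 1299 became 782 in the authors' value table, 850 with values on all arrays, 1955 with the measured signal kept, 718 after quantile normalization, 6932 with myofibers as replicates, 3392 with the mouse as a random block and 1977 without scan day 1, and ran from 0 to 4836 with each mouse left out. For Smn1deltaSKM+AFS against Smn1deltaSKM the count of 0 became 20 with myofibers as replicates. The count of 8 other pathway genes became 5 with values on all arrays and 15 with myofibers as replicates, and ran from 0 to 11 with each mouse left out. With the mouse number as a replicate block, 2375 genes were called for Smn1deltaSKM against WT, 921 for Smn1deltaSKM+AFS against WT and 6 of the other pathway genes, and the medians of the members were -1.62 and 0.70. Deviations of mice with the same number correlated between -0.06 and 0.31. In WT and Smn1deltaSKM+AFS, with 2 mice each, the deviations of the mice mirror each other. This check therefore cannot tell whether the numbers pair animals. Centring on probes available on all arrays moved the median of all genes from -0.11 to 0.10, and lower calls then made up 42.5% rather than 63.3% of those against WT. Acad8 stayed higher and Bckdk, Ivd, Hibadh and Aldh6a1 lower in Smn1deltaSKM than in WT in every alternative that measured them. The cause of these shifts was not tested, and weak probes such as those of Mccc2 are limited by signal over background.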
